A study of Mus musculus with 2 samples.

Results

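HILPDA and 9 further genes of the lipid droplet were examined in the RNA of oocytes matured with and without spermidine, a natural polyamine. The members were chosen by gene function, as genes that coat the droplet, fill it or break down its lipid, and the list was drawn up with the high level of HILPDA in these libraries already known. That level is therefore a description here and carries no test. All 10 genes were found in a table of 38817 genes, and 4 of them, HILPDA, PLIN2, LIPE and PNPLA2, reached a mean level of 1 FPKM, against 4391 genes of the whole table. FPKM is a count of fragments scaled to transcript length and library size, so levels of different genes are compared per length throughout.

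The series title concerns spermidine and the maturation of porcine oocytes, and the design text describes RNA sequencing of matured oocytes. The control was 1 library labelled as control, and the treated group was 1 library labelled SPE, whose column is headed SPD and which is taken to be spermidine. Each was made from a pool of 100 oocytes, and both were labelled as wild-type ICR mouse oocytes, with no dose, time or age given. The loci in the table, however, lie on pig chromosome accessions, so the levels were read as pig genes, and only the names and numbers of the columns tie them to the samples. The table also holds a second column headed for each group, Con2 and SPD2, which matched no sample used here and was not analysed. With 1 library per group used there is no replicate error, no test was made, and each difference below compares these 2 pools only.

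A lipid droplet is a core of triglyceride and sterol esters under a single layer of phospholipid and coat proteins. Perilipins cover the surface and control access of lipases, diacylglycerol acyltransferases make the triglyceride, and adipose triglyceride lipase, encoded by PNPLA2, makes the first cut when the store is used. HILPDA is a small droplet protein, known in human and mouse cells as a target of hypoxia-inducible factors and of PPAR receptors, that binds and inhibits this lipase. Pig oocytes are dark under the microscope because of their large lipid store, which serves as a fuel in maturation. The roles given for single genes below are those known in mouse and human.

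The FPKM columns summed to 249340 in control oocytes and 251829 in SPE oocytes, of which mitochondrially encoded genes made up 62.7% and 65.7%. The columns analysed give no read counts, so the depth and the precision of single values are unknown. A value of 0 was not taken as absence, since 17 of 74 cytosolic ribosomal protein genes were also listed at 0 in both libraries and 14 in 1 of them. Of 14 oocyte markers 11 reached a mean level of 1 FPKM. OOSP2, an oocyte-secreted protein gene, was the highest (904 and 730 FPKM) and had the lowest ratio, while the growth factor gene GDF9 had the highest (78.1 and 145 FPKM). The germ cell gene DDX4 was at 0.00694 FPKM in control oocytes and at 0 in SPE oocytes.

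HILPDA stood far above the other members. It was at 1754 FPKM in control oocytes and at 1564 FPKM in SPE oocytes. Among nuclear genes other than ribosomal RNA it ranked at position 2 in each library, behind the ubiquitin gene UBB at 3006 and 3160 FPKM, and so above every oocyte-secreted factor examined. The next gene down, ACCSL, an ACC synthase-like gene, was at 1585 and 1454 FPKM, so HILPDA was 1.11-fold and 1.08-fold above it. HILPDA was 2.52-fold above BMP15, an abundant growth factor of the oocyte, in control oocytes and 2.47-fold in SPE oocytes. It alone took 2.17% of the summed FPKM of nuclear genes in control oocytes and 2.01% in SPE oocytes, where the median nuclear gene of at least 1 FPKM had 3.64 and 3.54 FPKM. Its listed locus spans 2129 bases of pig chromosome 18, from 21014116 to 21016244, on a build not given in the sources used here. No other gene listed overlapped it.

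**Figure D1:**
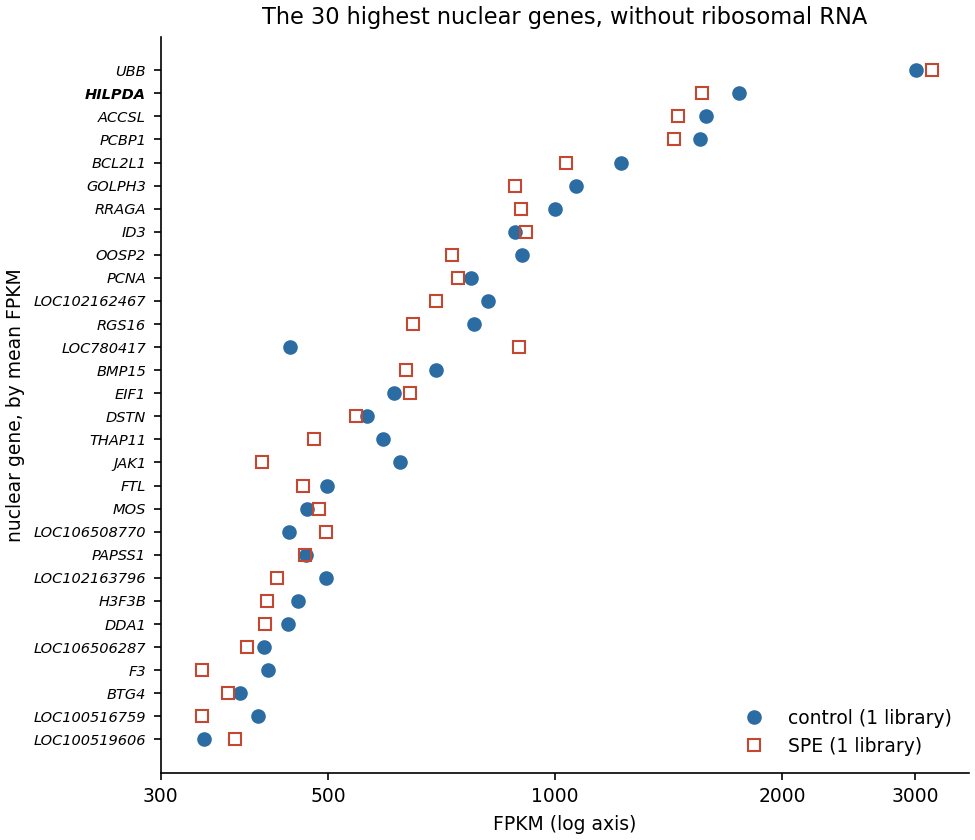
The 30 highest nuclear genes without ribosomal RNA, ordered from the top by mean FPKM, with FPKM on a log axis and 1 point for control oocytes (filled circles) and 1 for SPE oocytes (open squares). HILPDA is second from the top in both, at 1754 and 1564 FPKM, below UBB and just above ACCSL.

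The level of HILPDA differed little between the libraries. Its level in SPE oocytes was 0.892 times that in control oocytes, a log2 ratio of -0.17 on the log2(FPKM + 1) scale. Most genes of comparable level had small negative ratios: among 119 nuclear genes with a mean level of 100 FPKM or more, 93 were lower in SPE oocytes, with a median of -0.12 and quartiles of -0.23 and -0.02. HILPDA lay between these quartiles. When each library was scaled without its mitochondrial genes, its ratio was -0.06. The median of the genes kept then lay 0.13 higher, but over 10652 genes in place of 4391. The 3 genes with an established symbol nearest to HILPDA in level over the 2 libraries were ACCSL at a distance of 0.18 on the log2 scale, the RNA-binding protein gene PCBP1 at 0.21 (1557 and 1436 FPKM) and the mitochondrially encoded ND4 at 0.24. With 2 libraries this likeness concerns level and 1 ratio only.

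The lipase that HILPDA inhibits was expressed at a far lower level. PNPLA2 was at 1.16 FPKM in control oocytes and 2.16 FPKM in SPE oocytes, the largest ratio among the 4 members of at least 1 FPKM (0.55 on the log2(FPKM + 1) scale, or 1.86-fold without the pseudocount). The FPKM of HILPDA was 1511 times that of PNPLA2 in control oocytes and 724 times in SPE oocytes, a comparison within each library that does not depend on how libraries are scaled. Among 2613 genes with a mean between 1 and 5 FPKM the quartiles of the log2 ratio were -0.19 and 0.24, so PNPLA2 lay outside the middle of these genes, while 171 of them (6.54%) differed by 2-fold or more. Its listed locus spans 4434 bases of chromosome 2 and was shared with no other gene.

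G0S2 encodes the other well-known inhibitor of this lipase. It was listed at 0 in control oocytes and reached 0.457 FPKM in SPE oocytes, with a listed locus of 1011 bases on chromosome 9. Of the pair of inhibitor genes only HILPDA thus reached 1 FPKM. ABHD5, whose product activates the lipase and is held at the droplet by perilipins, was at 0.0655 and 0.119 FPKM.

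LIPE, which encodes hormone-sensitive lipase, the enzyme that cleaves diacylglycerol next, was at 1.72 and 1.63 FPKM. Its log2 ratio was -0.05, and 0.03 when mitochondrial genes were left out of the scaling, so no direction can be given. Its locus of 161322 bases on chromosome 6 is shared with 7 provisional genes, and the summed FPKM of all 8 was 1.74 in control oocytes and 3.02 in SPE oocytes. In the control the level of LIPE was 1.48 times that of PNPLA2, and in SPE oocytes 0.756 times. The summed levels of the shared locus lay above PNPLA2 (1.16 and 2.16 FPKM) in both libraries. Whether reads were divided among the genes of this locus is not given. Whether the change in order of both lipase genes depends on such a division was not tested.

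Other lipase genes fixed in a wider list included one at a higher level than either. DDHD2, a phospholipase A1 family member that acts as a triglyceride lipase in mouse brain, was at 22.4 and 20.2 FPKM, 19.3 times PNPLA2 in control oocytes and 9.36 times in SPE oocytes. LIPA, the acid lipase of the lysosome, was at 3.21 and 3.01 FPKM. These were the 2 of 10 further lipolysis genes found that reached 1 FPKM. MGLL, which encodes the monoglyceride lipase of the last step, was listed at 0 in control oocytes and at 0.00211 FPKM in SPE oocytes.

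Of the 4 coat and fusion genes among the members, PLIN1, PLIN2, PLIN3 and CIDEC, PLIN2 was the highest, and it was far below HILPDA. PLIN2, the perilipin of most non-adipose cells, was at 3.95 FPKM in control oocytes and 2.62 FPKM in SPE oocytes, a log2 ratio of -0.45 on the log2(FPKM + 1) scale. HILPDA was at 444 times its level in control oocytes and 598 times in SPE oocytes. The locus of PLIN2 on chromosome 1 (227334036 to 227357123) was shared in full with the provisional gene LOC100737553, at 14.8 and 14.6 FPKM. Whether and how reads were divided between both is not given, and the summed levels of 18.8 and 17.3 FPKM had a log2 ratio of -0.11. Whether the lower value of PLIN2 in SPE oocytes depends on such a division was not tested. The same holds for both ratios of HILPDA to PLIN2.

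The other coat genes were low. PLIN3, a perilipin found in the cytosol and on young droplets, was at 0.0639 and 0.0902 FPKM on an unplaced scaffold. PLIN1, the adipocyte perilipin, was at 0.159 FPKM in control oocytes and listed at 0 in SPE oocytes, over a locus shared with PEX11A and a provisional gene. CIDEC, which fuses droplets in adipocytes, was listed at 0 in both libraries. PLIN5, the perilipin of oxidative tissues and not one of the 10, was at 0.945 and 1.11 FPKM.

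The enzymes that make triglyceride from diacylglycerol were also low. DGAT1 was at 0.640 FPKM in control oocytes and 0.0994 FPKM in SPE oocytes, over 9588 bases of chromosome 4 (log2 ratio -0.58). DGAT2 was listed at 0 in both. The 6 members under a mean of 1 FPKM were thus DGAT1, G0S2, PLIN1, PLIN3, CIDEC and DGAT2, of which 2 were listed at 0 in both libraries and 2 in 1 of them.

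**Figure D2:**
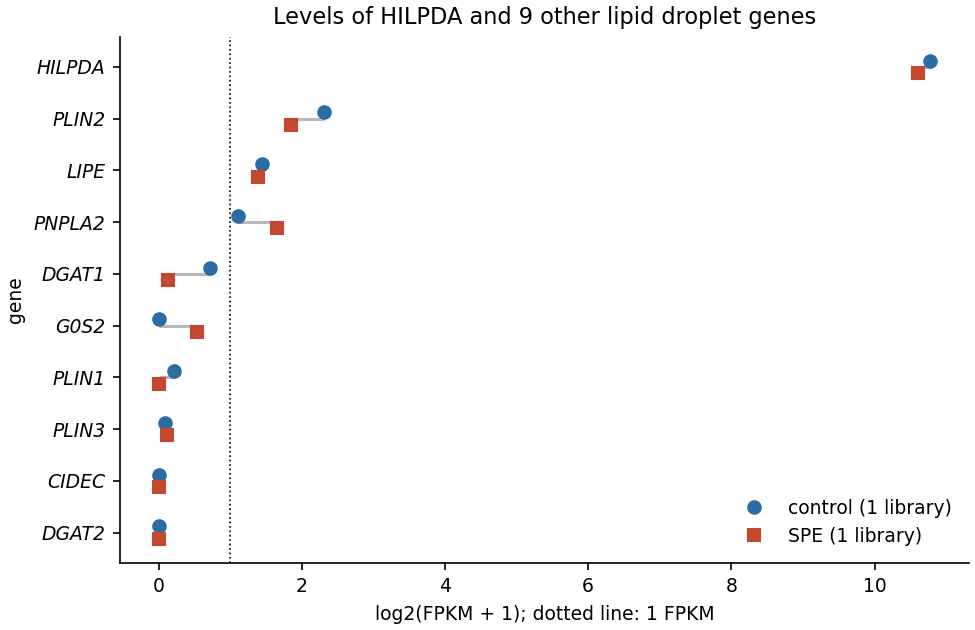
Levels of the 10 members as log2(FPKM + 1), with 1 point per gene for control oocytes (circles) and 1 for SPE oocytes (squares). HILPDA lies near 11 on this scale, PLIN2, LIPE and PNPLA2 lie just right of the dotted line at 1 FPKM, and the other 6 lie left of it.

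As a group, no member differed by 2-fold or more between the libraries on the log2(FPKM + 1) scale. Among all 4391 genes with a mean level of 1 FPKM or more, 4.99% did, with 2.85% higher and 2.14% lower in SPE oocytes, so 0 of 4 members is near this background. Of these 4, 3 were lower and 1, PNPLA2, was higher in SPE oocytes, except that LIPE turned higher when mitochondrial genes were left out of the scaling. The median log2 ratio was -0.11, beside -0.04 for all genes kept. HILPDA held 99.6% of the summed FPKM of the 10 members in each library, and the sum was 1761 FPKM in control oocytes and 1571 FPKM in SPE oocytes. Without HILPDA the other 9 summed to 7.69 and 7.05 FPKM. The scale matters for the low members: with a pseudocount of 0.1 FPKM the ratio of DGAT1 was -1.89 and that of G0S2 was 2.48, past 2-fold in opposite directions, from values under 1 FPKM.

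**Figure D3:**
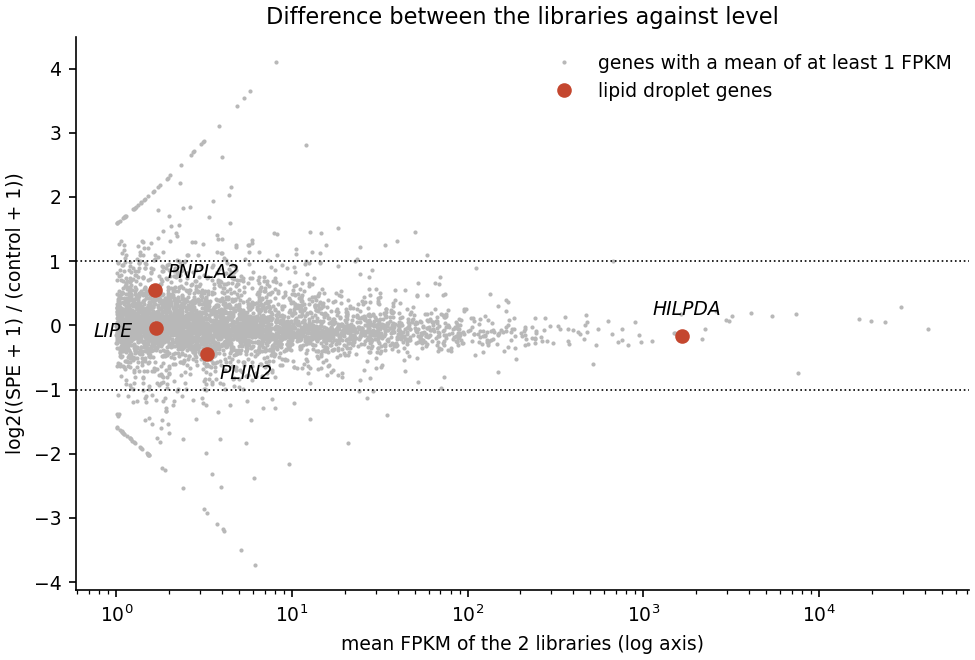
Log2 ratio of SPE to control, with 1 FPKM added to each, against mean FPKM on a log axis for the 4391 genes kept (grey) and the 4 members among them (red), with dotted lines at 2-fold. All 4 members lie within the dotted lines, and HILPDA lies among the highest genes at -0.17.

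Lipid genes beyond the members were read from 7 lists. Of their 108 genes found, 19 reached a mean level of 1 FPKM and none of them passed 2-fold on the log2(FPKM + 1) scale. INSIG2, a sterol regulation gene, was the 1 of the 19 that passed 2-fold with a pseudocount of 0.1 FPKM, after median centring and under both other scalings. Of the 19, 14 were lower and 5 higher in SPE oocytes, with a median of -0.11. Of all 4391 genes kept, 2434 were also lower and 1957 higher, with a median of -0.04. With mitochondrial genes left out of the scaling 12 of the same 19 were lower and 7 higher.

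Among 16 other genes of the droplet surface and droplet formation, 6 reached 1 FPKM, 3 higher and 3 lower in SPE oocytes. UBXN4, a ubiquitin-domain protein of the endoplasmic reticulum, was the highest, at 5.62 and 7.03 FPKM. FITM2, which helps droplets bud from the endoplasmic reticulum, had the lowest ratio (5.09 and 3.25 FPKM, -0.52). BSCL2, which encodes seipin of the same budding sites, was at 0.208 and 0.486 FPKM. For triglyceride and sterol ester synthesis, AGPAT1, which acylates lysophosphatidic acid, was the 1 gene of 20 found that reached 1 FPKM, at 7.74 and 7.02 FPKM. SOAT1, which esterifies cholesterol, was at 0.452 and 0.527 FPKM.

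Genes that burn or build fatty acids were mostly under 1 FPKM. So was most of the table, where 11.3% of genes reached a mean of 1 FPKM. Of 23 listed genes of fatty acid oxidation, 3 reached it. They were the carnitine carrier gene SLC25A20 (3.12 and 2.82 FPKM), the medium-chain dehydrogenase gene ACADM (1.62 and 1.95 FPKM) and HADH (1.39 and 1.29 FPKM). The list is not complete: EHHADH, an oxidation gene outside it, was at 7.76 and 8.92 FPKM. CPT1A, the entry enzyme of mitochondrial oxidation in most tissues, was listed at 0 in both libraries, as was FASN, the fatty acid synthase. In synthesis and desaturation 1 of 16 genes, the elongase gene ELOVL3, reached 1 FPKM (1.57 and 1.38 FPKM). For uptake, the acyl-CoA synthetase family gene SLC27A3 was the 1 gene of 8 analysed that reached the minimum, at 1.76 and 1.54 FPKM.

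Of 15 regulators of lipid metabolism found, 5 reached 1 FPKM. MLX, the partner of the glucose-responsive factors, was the highest at 58.3 and 50.0 FPKM. The liver X receptor gene NR1H2 had the lowest ratio (9.03 and 7.40 FPKM, -0.26). INSIG2, which holds the sterol sensor in the endoplasmic reticulum, had the highest ratio of the 19 lipid genes, at 0.361 and 1.68 FPKM (0.98), just under 2-fold on this scale and 4.67-fold without the pseudocount. Of the PPAR genes, known elsewhere as activators of HILPDA and PLIN2, PPARD was at 3.82 and 3.53 FPKM, PPARG at 0.0731 and 0.114 FPKM, and PPARA was listed at 0 in both.

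HILPDA is named for its response to hypoxia, and other genes with that response were far lower. The highest of 21 found was ANKRD37, at 11.8 FPKM in each library, and HILPDA was at 149 and 132 times its level. CA9, carbonic anhydrase 9, was at 8.26 and 8.60 FPKM, and the glucose transporter gene SLC2A1 had the highest ratio (5.08 and 6.53 FPKM, 0.31). DDIT4, an inhibitor of mTOR signalling, had the lowest ratio (1.88 and 1.18 FPKM, -0.40). VEGFA, the vascular growth factor of the same response, was listed at 0 in both libraries. In all, 7 of the 21 reached 1 FPKM, 3 higher and 4 lower in SPE oocytes, and none differed by 2-fold. Among 6 genes of the hypoxia-inducible factor pathway itself, VHL, which marks the factors for breakdown, was the 1 gene of at least 1 FPKM (3.09 and 4.85 FPKM, 0.52). HIF1A was at 0.583 and 0.293 FPKM and EPAS1 at 0.109 and 0.112 FPKM.

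**Figure D4:**
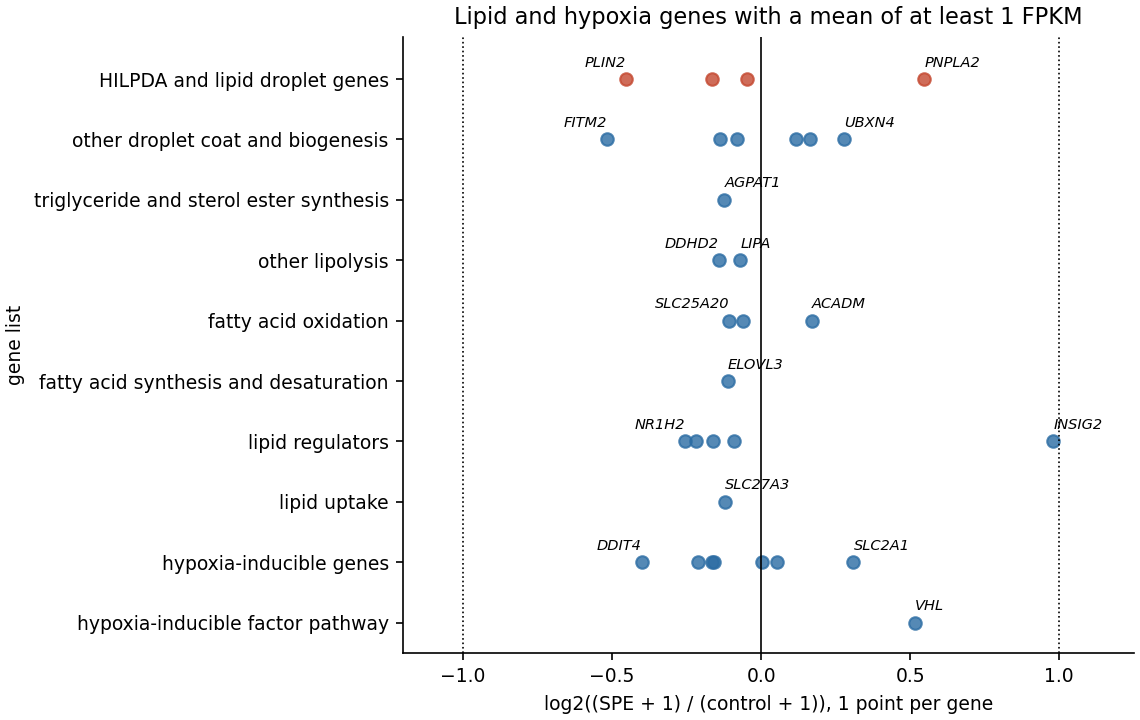
Log2 ratio of SPE to control, with 1 FPKM added to each, for each gene with a mean level of 1 FPKM or more in the members (red) and in the lipid and hypoxia lists (blue), with the genes of the lowest and highest ratio named in each list and dotted lines at 2-fold. All points lie within the dotted lines, and INSIG2 at 0.98 and PNPLA2 at 0.55 lie farthest to the right.

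Markers of other cells were set beside these values, since cumulus cells and fat cells also carry droplets. In bulk RNA, fewer cells of a type and less RNA per cell cannot be told apart. The 17 granulosa and cumulus markers found summed to 29.9 FPKM in control oocytes and 12.7 FPKM in SPE oocytes, with 10 lower, 3 higher and 4 (AMH, AMHR2, LHCGR and TNFAIP6) at 0 in both. Among the 4 that reached 1 FPKM, INHBB (10.8 and 1.28 FPKM) and HSD3B1 (1.90 and 0.111 FPKM) were at least 2-fold lower, while INHBA (9.87 and 5.55 FPKM) and GATA4 (4.13 and 3.70 FPKM) differed less. FSHR, the receptor that defines granulosa cells, was at 0.195 and 0.113 FPKM. As listed, 5 of the 10 members (HILPDA, PLIN2, LIPE, DGAT1 and PLIN1) were lower in the same library as the sum of these markers. PNPLA2, G0S2 and PLIN3 were higher there, and CIDEC and DGAT2 were at 0 in both. The part of carried-over cells in these differences was not tested. The sum of the granulosa and cumulus markers was far below the level of HILPDA in each library. The part of carried-over cells in the level of HILPDA was not tested either.

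The 6 adipocyte markers found, among them ADIPOQ and LEP, were listed at 0 in both libraries. The 9 markers of theca, stroma and endothelium found summed to 0.378 and 0.431 FPKM, with PECAM1 the highest at 0.352 and 0.314 FPKM, and the 8 of blood and immune cells to 0.395 and 0.0242 FPKM, of which CD68 was the highest at 0.395 FPKM in control oocytes and 0 in SPE oocytes.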

How the data were processed

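The authors deposited 1 table of FPKM values per gene, per the file's name. Bowtie2 2.2.5, RSEM and the mouse build mm9 are named per the submitters' processing notes, but the loci lie on pig chromosome accessions, and no source used here gives their annotation or build. Chromosome numbers were read from the accessions, and starts were raised by 1. By name, Con1 was taken as the control and SPD1 as the SPE library. The other 2 value columns, Con2 and SPD2, fit no labelled sample here and were left out; by their names they may be second libraries of the same groups, and whether any difference holds in them was not analysed here.

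The log2 ratio of SPE to control was computed after adding 1 FPKM to each value, which makes differences of low genes look smaller. Genes whose mean level reached 1 FPKM were counted at or beyond 2-fold. Between 0.005 and 0.3 FPKM, 4.43% of 5128 genes had the commonest ratio of 1.026 to a relative tolerance of 0.001. Read counts were not derived from such repeated ratios, and whether low values stand for whole reads was not tested. Members and lists were chosen with earlier results of these data known. The rule named all members, genes sharing their loci, the 3 genes nearest to HILPDA and, from each list, the highest gene, those of highest and lowest ratio and any beyond 2-fold. UBB, BMP15, DDX4, ABHD5, MGLL, PLIN5, BSCL2, SOAT1, HADH, CPT1A, FASN and the PPAR genes were added after their values were seen. So were EHHADH, CA9, VEGFA, HIF1A, EPAS1, FSHR and markers named at 0. 1 gene of the uptake list is not reported here. Alternatives covered pseudocount, minimum, centring and scaling. Calculations were tested on simulated data. Python 3.11.15, numpy 2.4.6, scipy 1.17.1, pandas 2.3.3 and matplotlib 3.10.9 were used.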

Additional observations from a re-analysis of the deposited data

How the results depend on the processing

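No paired analysis was made because 1 library per group was used, with Con2 and SPD2 left out. The median log2 ratio of the measured members lay between -0.18 and -0.02 in the 7 alternatives, but not always over the same genes. It covered 4 members as reported, 10 with no minimum and 1, HILPDA, with a minimum of 10 FPKM. On the TPM scale it covered 5, and without mitochondrial genes 6. The ratio of summed member levels, SPE to control, was 0.892 as reported, 0.883 on the TPM scale and 0.959 without mitochondrial genes. For the same reason no spread between replicates was measured. Moves were judged against a spread across genes, the scaled median absolute deviation of their log2 ratios (0.27), with 1 library per group used. The number of genes at least 2-fold higher and lower, 125 and 94 as reported, was 238 and 168 with a pseudocount of 0.1 FPKM, 23 and 15 with 5 FPKM, 226 and 158 with no minimum, and 17 and 7 with a minimum of 10 FPKM. It was 612 and 444 on the TPM scale and 1451 and 877 without mitochondrial genes; both scalings raise all values, so the same pseudocount and minimum weigh less. On the TPM scale 1 of 5 members passing the minimum was beyond 2-fold, DGAT1 at -1.35, and without mitochondrial genes 2 of 6, DGAT1 at -1.87 and G0S2 at 2.65. The ratio of PNPLA2 ranged from 0.22 (pseudocount 5 FPKM) to 0.95 (without mitochondrial genes). Summing PLIN2 over its shared locus was chosen after seeing the data. Of all lipid genes passing the minimum in each setting, those beyond 2-fold numbered 0 as reported, 1 with a pseudocount of 0.1 FPKM or median centring, 2 on the TPM scale and 8 without mitochondrial genes, where 54 passed the minimum. Without read counts the precision of every value, that of HILPDA included, is unknown.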
